A study of Rattus norvegicus with 12 samples.

Results

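The 10 genes described here are immediate early and AP-1 genes of the rat: the zinc finger factor Egr1, the Fos family (Fos, Fosb, Fosl1, Fosl2), the Jun family (Jun, Junb, Jund) and the response genes Ier2 and Ier3. They were taken by their gene symbol from the 2 deposited gene tables, which hold 18616 and 19355 genes, 20400 in either. For 9 of the 10 there is a row in both tables, and Ier2 was not analysed here. RNA was sequenced from wild-type rat bone marrow cells, labelled mesenchymal stem cells (BMSCs), in 12 libraries that fall into 4 groups of 3 replicates. All groups were kept in low-glucose medium with chondrogenic induction. BMSC-C libraries are from untreated cells, and in BMSC-CT 1 week of CTGF, a matricellular growth factor, was followed by TGF-β1. BF-C and BF-D are called fibrotic BMSCs in the sample labels and induced fibrotic chondrocytes in the series design, without and with the microtubule-stabilizing drug docetaxel. Dose and time of docetaxel, time in TGF-β1 and the making of the BF cells are not stated in the labels. No label calls the replicates separate cultures, so each p measures the spread between these libraries, which may be technical.

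Immediate early genes are transcribed within minutes of a growth factor, cytokine or stress signal, mostly through the ERK, JNK and p38 kinases acting on factors such as SRF with its Elk partners and CREB, and without new protein synthesis. AP-1 is a dimer of basic leucine zipper (bZIP) proteins, most often a Jun protein with a Fos protein, and it binds the TRE and CRE elements of genes for matrix metalloproteinases, cytokines and cyclins. In connective tissue cells Egr1 and AP-1 are known for their part in the response to TGF-β, to mechanical load and to inflammation. Most of these transcripts are short-lived, so their steady level depends on ongoing signalling.

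The sequences before the start sites of 7 of the 10 genes were matched by symbol in RefSeq (build GRCr8). Fos, Jun and Ier3 were not matched. Shown are the 250 bases before the annotated start of Egr1 (chr18:26736828-26737077, plus strand) and Fosl1 (chr1:212183635-212183884, plus strand), the 2 genes with the largest falls below. Jund (chr16:18769772-18770021, minus strand) is shown because its value lay in the other direction. Capitals mark matches to the CArG box, the element that SRF binds, and to the CRE TGACGTCA or its core ACGTCA, which CREB and some AP-1 dimers bind.
Egr1: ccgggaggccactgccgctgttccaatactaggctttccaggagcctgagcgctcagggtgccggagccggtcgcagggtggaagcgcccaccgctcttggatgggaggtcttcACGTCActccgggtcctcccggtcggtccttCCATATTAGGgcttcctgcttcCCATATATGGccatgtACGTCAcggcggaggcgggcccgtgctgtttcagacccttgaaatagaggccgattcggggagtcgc
Fosl1: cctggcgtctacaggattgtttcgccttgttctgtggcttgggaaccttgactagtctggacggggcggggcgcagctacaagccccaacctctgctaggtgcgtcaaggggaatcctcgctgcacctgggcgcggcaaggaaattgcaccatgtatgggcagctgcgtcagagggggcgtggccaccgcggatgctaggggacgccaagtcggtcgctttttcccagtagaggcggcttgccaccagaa
Jund: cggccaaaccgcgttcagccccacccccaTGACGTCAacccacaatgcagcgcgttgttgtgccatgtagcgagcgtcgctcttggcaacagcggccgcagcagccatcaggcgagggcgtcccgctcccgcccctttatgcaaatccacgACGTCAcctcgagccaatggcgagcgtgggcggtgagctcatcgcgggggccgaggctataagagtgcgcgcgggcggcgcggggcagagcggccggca
The Egr1 stretch held 2 CArG boxes, CCATATTAGG at 105 to 96 and CCATATATGG at 83 to 74 bases before the start, and the core ACGTCA at 136 to 131 and at 67 to 62. The Jund stretch held TGACGTCA at 221 to 214, which includes the core, and a further ACGTCA at 99 to 94. Both strands were searched, also for TGANTCA, a pattern for the TRE that allows any middle base and so is wider than the TRE itself. None of the 4 motifs was found in the stretches of Fosl1, Fosl2, Fosb or Junb, and Ier2 held TGACGTCA at 66 to 59. Shorter or variant forms of these sites were not searched for, so these stretches may hold such forms. Of 33469 promoter stretches of the same length, 1.5% held a CArG box, 1.59% the CRE, 6.95% its core and 6.34% the pattern TGANTCA. A match describes letters in this window and shows no binding.

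Library depth ran from 15580310 to 19870047 reads. In each treated group 1 library stood apart, and results that rest on it are given with and without it. In BMSC-CT replicate 3, 14621 genes had reads, while its group mates reached 16100.0 and 16443, and 13.7% of its reads came from ribosomal protein genes, against 4.83 and 5.93%. BF-D replicate 2 had 2.64% in those genes, against 1.70 and 1.58%, and in both libraries long genes were low relative to their group mates (Spearman rho with gene length across genes -0.404 and -0.356). The BMSC-C libraries differed too, with 3.76, 4.45 and 4.80% in ribosomal protein genes and rho of 0.216, -0.0647 and -0.180 in replicates 1 to 3. Leaving out BMSC-CT replicate 3 does not remove this spread. The 17 macrophage marker genes together took 0.913 to 1.10% of reads in BMSC-C and 1.20 to 1.47% in BMSC-CT, but 0.00433 to 0.00461% in BF-C and 0.00611 to 0.00663% in BF-D, where C1qa, C1qb, C1qc and Cd163 have no row. The 10 mesenchymal markers took 0.718 to 1.49% in the BMSC libraries and 4.85 to 6.49% in the BF libraries. Against their label as mesenchymal stem cells, the BMSC libraries thus held macrophage marker RNA, and the BF libraries held next to none. In bulk RNA, fewer cells of a type and less RNA per cell cannot be told apart.

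Levels were first set side by side over the 4 groups as RPM, the reads of a gene scaled to a fixed library total. The 2 tables were normalized separately and the BF cells cannot be tied to the BMSC cells, so the differences between BMSC and BF libraries carry no test. Egr1 was highest in BMSC-C, at a mean of 87.0 RPM with libraries from 78.8 to 91.9. It was at 26.0 RPM in BF-D and 24.7 in BF-C, which overlap, and lowest in BMSC-CT at 9.47, clear of all other groups. Fosl1, the Fra-1 protein of the Fos family, had the same order, at 42.1 RPM in BMSC-C, 30.3 in BF-D, 27.2 in BF-C and 3.76 in BMSC-CT. For both genes the lowest group lay apart from the next, and the BF groups lay between the BMSC groups. Fos was near 5 to 6 RPM in 3 groups that overlap, with means of 5.94 in BF-C, 5.54 in BMSC-C and 5.29 in BF-D, and at 0.821 in BMSC-CT. Fosb was the scarcest gene, at 0.521 to 1.35 RPM, and its neighbouring groups all overlap. Fosl2, which encodes Fra-2, was highest in BF-C at 70.8 RPM, apart from BMSC-C at 51.7, and lowest in BMSC-CT at 23.6, which overlaps BF-D at 48.1.

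Jun, Junb and Jund followed another order. Jun was at 153 RPM in BMSC-C and 112 in BMSC-CT, which overlap, and at 58.7 in BF-D, which overlaps BMSC-CT, and 51.2 in BF-C, just apart. The lowest BMSC library of Jun was BMSC-CT replicate 3 at 48.5 RPM, below the BF-C range. Junb was likewise higher in the BMSC groups, at 365 and 309 RPM, than in the BF groups, at 164 and 148. Jund was highest in BMSC-CT at 403 RPM, apart from BMSC-C at 245, which overlaps BF-D at 218 and is followed by BF-C at 189.9. Ier3, an early response gene that protects cells from death in several settings, had the highest RPM of the 9 in every group mean. Its mean was 751 RPM in BMSC-C, 589 in BF-D, 539 in BMSC-CT and 356 in BF-C, and only BF-C lay apart from its neighbour in this order.

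**Figure D1:**
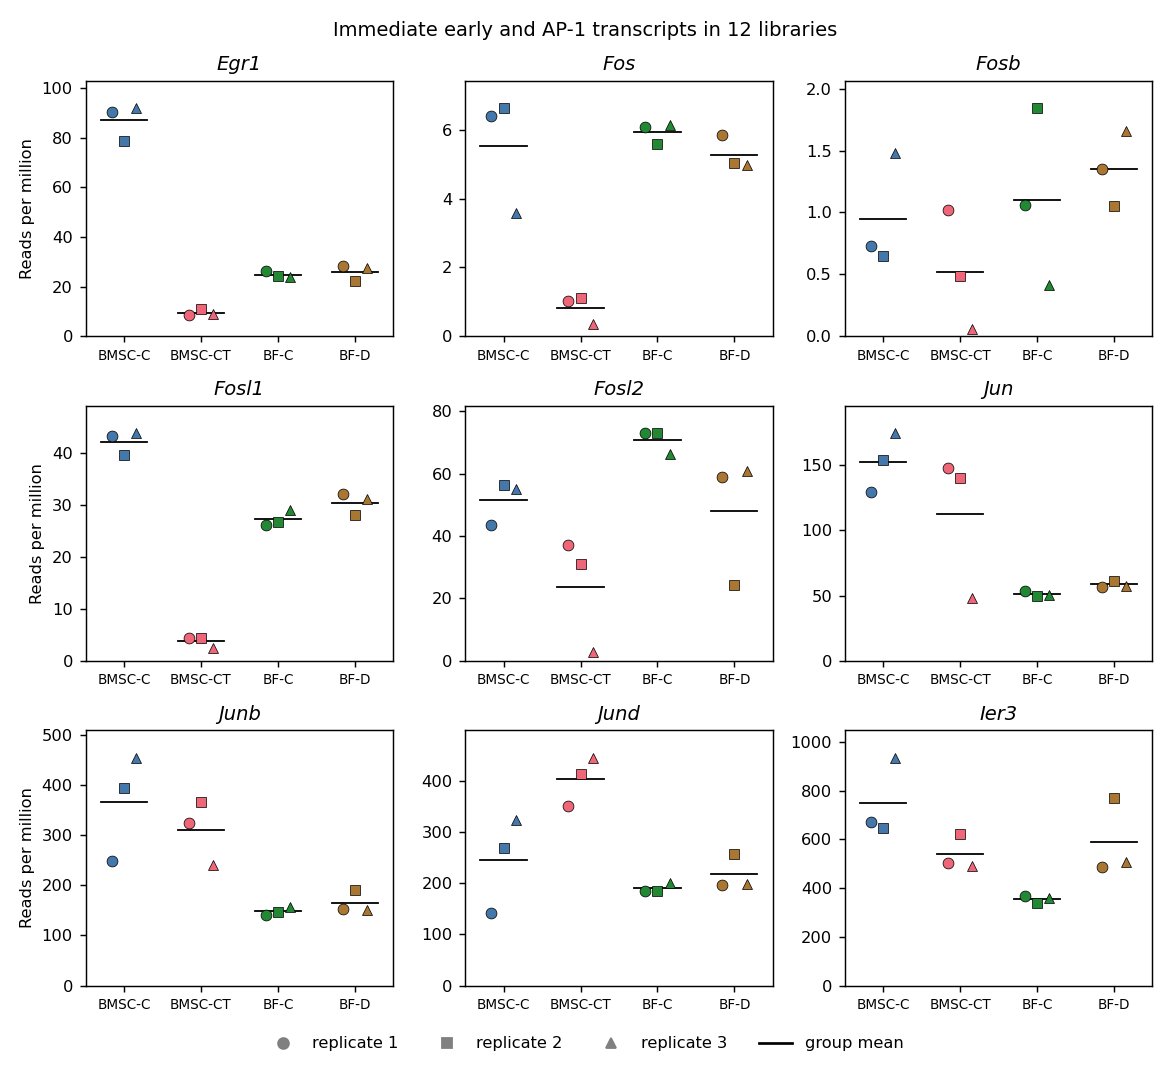
RPM of each gene (y axis from 0, own scale per panel) in the 12 libraries, by group on the x axis. Markers are single libraries, shaped by replicate number, and bars are group means. Egr1 and Fosl1 are lowest in BMSC-CT, at means of 9.47 and 3.76, and Jund is highest there, at 403.

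CTGF followed by TGF-β1 was compared with untreated BMSCs on the deposited normalized counts, which are reads divided by a size factor per library. Each log2 fold change is BMSC-CT minus BMSC-C on log2(normalized count + 1), tested with limma over 16818 genes. A change is called at a Benjamini-Hochberg adjusted p under 0.05. Of the 9 genes, 3 fell, Fosl1, Egr1 and Fos, and none rose; of all genes tested 10.9% fell and 7.7% rose. At an unadjusted p under 0.05 Jund was the 1 gene higher and 3 were lower, against 17 and 21.6% of all genes. Of the count tests, edgeR and limma-voom called 0 of the 9 higher (8.05 and 8.04% of all genes) and DESeq2 called 1, Jund (16.4% of all genes). All of these tools called the same 3 genes lower, among 9.51, 11.9 and 16.4% of all genes.

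Egr1, the zinc finger factor, had 1317, 1137 and 1399 normalized counts in the BMSC-C libraries and 139, 187 and 248 in the BMSC-CT libraries. All BMSC-CT libraries were far below all BMSC-C libraries. It fell from 1284.5 ± 134 to 191 ± 54.5 (SD, n = 3 each), a log2 fold change of -2.77 (SE 0.27) with a limma adjusted p of 0.00185. Its promoter stretch is the one above with the 2 CArG boxes, whose part in the fall was not tested. Egr1 was called in all 17 alternative analyses, with log2 fold changes between -3.195 and -2.385.

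Fosl1 (Fra-1), the Fos protein often tied to cell migration and matrix metalloproteinase genes, had 628, 569 and 666 normalized counts in BMSC-C and 71.4, 76.0 and 67.6 in BMSC-CT. The BMSC-CT libraries were close to each other on this scale, while in RPM replicate 3, at 2.43, lay below replicates 1 and 2, at 4.46 and 4.4. It fell from 621 ± 48.8 to 71.7 ± 4.18 (SD, n = 3 each), a log2 fold change of -3.10 (SE 0.22, limma adjusted p = 0.000796). All 17 alternatives called it. In the authors' deposited table its adjusted p was 2.93e-35, that of Egr1 2.42e-16 and that of Fos 1.01e-05. These equal the smallest values over the 17 alternatives for each gene and are no separate support.

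Fos, the founding partner of Jun in AP-1, rested on few reads. It had 93.5, 95.6 and 54.6 normalized counts in BMSC-C (115, 113 and 63 reads) and 16.3, 19.0 and 9.66 in BMSC-CT (18, 18 and 6 reads). The groups did not overlap, although BMSC-C replicate 3 lay well below its mates. Fos fell from 81.2 ± 23.1 to 15.0 ± 4.80 (SD, n = 3 each), a log2 fold change of -2.37 (SE 0.44) with a limma adjusted p of 0.0161. The call was lost without BMSC-C replicate 1 (limma adjusted p = 0.0907) and without BMSC-C replicate 2 (0.0967), and the other 15 alternatives kept it. Of the 9 KEGG terms in the authors' deposited table for this comparison, 1 named a gene of the 10, Rheumatoid arthritis, which listed Fos (adjusted p = 0.0326).

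The other Fos family genes did not pass. Fosl2 had 635, 814 and 841 normalized counts in BMSC-C and 592, 537 and 75.7 in BMSC-CT, so the groups did not overlap, but replicate 3 of BMSC-CT was far below its mates. Its log2 fold change was -1.39 (limma adjusted p = 0.225), and -0.43 without that library (adjusted p = 0.0710). Fosb, a Fos protein best known from neurons, had 11 to 26 reads in BMSC-C and 1 to 18 in BMSC-CT, and its groups overlapped. Its log2 fold change of -0.91 had a 95% interval from -2.80 to 0.99 (limma adjusted p = 0.411).

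In the Jun family the values did not follow those of Fosl1 and Fos. Jund, the Jun protein that is usually present also in resting cells, had 2056, 3886 and 4921 normalized counts in BMSC-C and 5622, 7127 and 12392 in BMSC-CT. All BMSC-CT libraries lay above all BMSC-C libraries, with replicate 3 highest. Over the BMSC libraries Jund had the same order as the ribosomal protein share, which ran from 3.76 to 13.7% of reads. The part of that share in the Jund values was not tested. The log2 fold change was 1.22 (95% interval 0.19 to 2.24) with a limma adjusted p of 0.0889, so it missed the threshold, and it was 0.90 without BMSC-CT replicate 3 (adjusted p = 0.0556). The authors' deposited table, from the same libraries, gave it an adjusted p of 0.0411. Over the 17 alternatives its adjusted p ran from 0.0297 to 0.256, and 2 called it.

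Jun, the archetypal AP-1 subunit, had 1887, 2221 and 2659 normalized counts in BMSC-C and 2368, 2426 and 1349 in BMSC-CT. The groups overlapped, and only replicate 3 of BMSC-CT was low. Its log2 fold change was -0.17 (95% interval -0.87 to 0.52; limma adjusted p = 0.669), and 0.10 without that library. Junb, a Jun protein that often restrains Jun, ranged from 3608 to 6917 in BMSC-C and from 5172 to 6662 in BMSC-CT, with a log2 fold change of 0.21 (95% interval -0.48 to 0.89; limma adjusted p = 0.605). It was -0.22 with total-read scaling and -0.19 with quantile normalization. Ier3 ranged from 9341 to 14247 in BMSC-C and from 8021 to 13670.3 in BMSC-CT, which overlap, with a log2 fold change of -0.05 (95% interval -0.74 to 0.65; limma adjusted p = 0.913).

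Groups did not overlap for 5 of the 9 genes: Egr1, Fos, Fosl1 and Fosl2 were lower in every BMSC-CT library and Jund was higher. Of all genes tested, 28.9% were lower and 23.3% higher in this way. The median log2 fold change of the 9 was -0.907, beside -0.147 over all genes. Without BMSC-CT replicate 3 it was -0.232, beside -0.075, while the same 3 genes fell and none rose, among 23.5% of genes that fell and 19.5% that rose. Total-read scaling moved the median of all genes to -0.533; relative to that median Fosl1 was at -2.98, Egr1 at -2.66, Fos at -2.23 and Jund at 1.33, against -2.95, -2.63, -2.22 and 1.37 as deposited. Of the 17 macrophage markers, 6 rose and 2 fell in the same comparison. Beside these and the mesenchymal counts below, 7.7% of all genes rose and 10.9% fell. Csf1r, the receptor for the macrophage growth factor, had a log2 fold change of 2.12 (SE 0.19, limma adjusted p = 0.00150). Lyz2 and Cd68 were at 1.41 and 1.81. Cd163 fell by 3.68, from only 15.5 to 0.352 normalized counts. The other fall, named after its value was seen, was Adgre1, from 46426 to 17359 normalized counts (-1.50, limma adjusted p = 0.0334). The list was split, with 8 markers above 0, 9 below 0 and a median of -0.41. The part of the macrophage markers in the result was not tested. Among the mesenchymal markers 3 rose and 3 fell of 10: Cxcl12 and Pdgfra had log2 fold changes of -6.98 and -3.14, and Col1a1 and Col3a1 of 2.39 and 2.99. Leaving out BMSC-CT replicate 3 gave 8 rises and 8 falls of 17 macrophage and 4 and 4 of 10 mesenchymal markers.

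**Figure D2:**
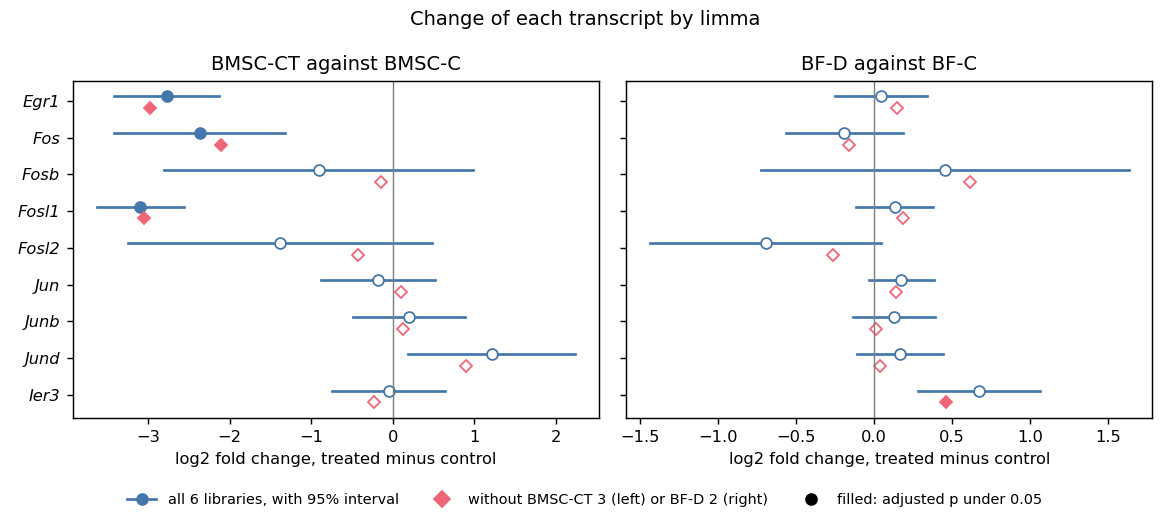
Log2 fold change, treated minus control, of the 9 genes (x axis) for CTGF then TGF-β1 (left) and docetaxel (right). Circles with lines are the limma estimates from 6 libraries with 95% intervals, diamonds leave out the library that stood apart, and filled symbols have an adjusted p under 0.05. Fosl1, Egr1 and Fos are filled on the left, at -3.10, -2.77 and -2.37, and on the right the 1 filled symbol is the diamond of Ier3, at 0.46.

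Because AP-1 is a dimer, the make-up of the families was also compared, as RPM per kilobase of the gene length deposited by the authors. Fosl2 made up most of the Fos family level in every group: the BMSC-C mean was 70.3%, that of BMSC-CT 84.6%, that of BF-C 82.3% and that of BF-D 72.6%. The length deposited for Fosl2 is only 744 bases, which raises its share; as a share of plain RPM it was 51.4, 72.6, 67.4 and 54.5%. On that scale Fosl1 exceeded it in BF-D replicate 2, at 47.8 against 41.7%. The Fosl1 share was 25.8 ± 3.19% in BMSC-C (SD, n = 3). In BMSC-CT it was 5.03% and 5.84% in replicates 1 and 2 but 27.3% in replicate 3, where Fosl2 was low. Fos and Fosb together stayed a minor part, with Fos at 2.27 to 4.19% and Fosb at 0.252 to 0.436% as group means.

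Jund was 35.7 ± 3.48% of the Jun family level in BMSC-C and Junb 51.4 ± 0.944% (SD, n = 3 each). In the other groups Jund made up more than any other Jun gene, with 53.7 ± 8.86% for BMSC-CT, 53.2 ± 0.328% for BF-C and 53.8 ± 0.819% for BF-D. The lowest BMSC-CT library, at 47.7%, was above the highest BMSC-C library, at 38.2%. The sum of the Jun family over the sum of the Fos family, per length, was 2.99, 4.15 and 4.88 in the BMSC-C libraries and 8.22, 11.0 and 77.6 in the BMSC-CT libraries. It was 1.74, 1.76 and 2.03 in BF-C and 2.16, 5.28 and 2.13 in BF-D. On plain RPM, which does not use the Fosl2 length, it was 5.53, 7.93 and 9.15 in BMSC-C, 18.9, 24.8 and 132 in BMSC-CT, 3.55, 3.55 and 4.01 in BF-C and 4.14, 8.72 and 4.13 in BF-D. On both scales the BMSC-CT libraries lay above the BMSC-C libraries. BMSC-CT replicate 3 and BF-D replicate 2, the libraries with the highest ratio of their groups, are those with low Fosl2. These are transcript levels and say nothing of dimers.

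**Figure D3:**
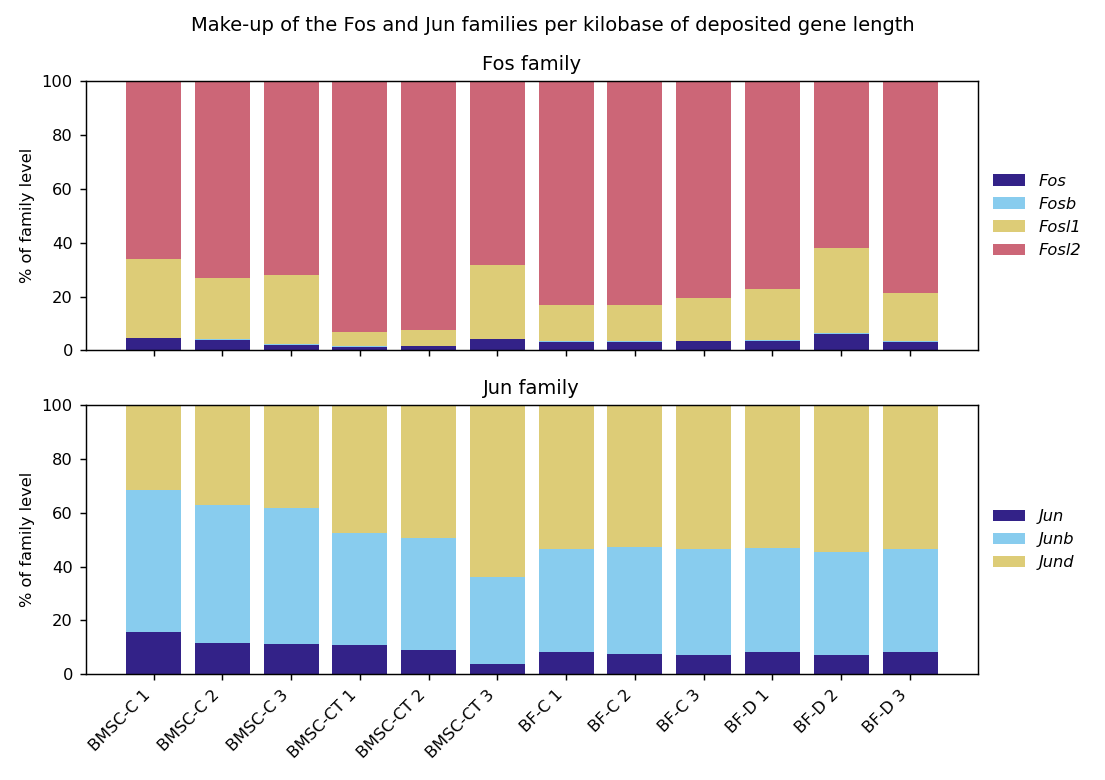
Share of each gene in the summed level of the Fos family (top) and the Jun family (bottom), in % of RPM per kilobase, for each of the 12 libraries. The Jund share in BMSC-C, 31.7 to 38.2%, lies below that of the 9 other libraries, and Fosl2 leads the Fos family in every library on this scale, but not as plain RPM in BF-D replicate 2, where Fosl1 has 47.8% and Fosl2 41.7%.

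The genes around AP-1 were read from lists by their known roles. These lists were chosen with earlier results of these data known, so their counts are descriptive and no independent support. Of 23 other immediate early genes tested, 11 fell and 2 rose, and the list median was -1.28 on the log2 scale (-0.94 without BMSC-CT replicate 3, with 13 falls and 2 rises). Of all genes tested 10.9% fell and 7.7% rose, and without that library 23.5% fell and 19.5% rose. Cyr61, a matricellular protein gene, went from 7615 ± 601 to 145 ± 11.8 normalized counts, a log2 fold change of -5.70 (SE 0.18, limma adjusted p = 0.000165). The nuclear receptor genes Nr4a1 and Nr4a2 had log2 fold changes of -3.30 and -4.08 and Klf2, a Krüppel-like factor, of -2.59, with limma adjusted p of 0.000339, 0.00135 and 0.00504. The rises were Sgk1, a kinase induced by serum and glucocorticoid, at 1.00 and Atf3, a bZIP factor of the stress response, at 1.29, both named after their values were seen. Sgk1 was not called with total-read scaling or quantile normalization (limma adjusted p = 0.244 and 0.0939).

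ERK feedback genes, which are induced by ERK signalling and mostly damp it, gave 8 falls and 1 rise of 15, with a median of -2.01 (10 falls and 2 rises without BMSC-CT replicate 3). For this list and the upstream genes below, the shares over all genes were 10.9% falling and 7.7% rising. Without that library they were 23.5 and 19.5%. Phlda1 went from 5683 ± 1055 to 459.87 ± 80.3 normalized counts, a log2 fold change of -3.62 (SE 0.23, limma adjusted p = 0.000515). The Sprouty inhibitors Spry1 and Spry4 were at -3.45 and -2.50 and Errfi1, an inhibitor of the EGF receptor, at -3.08. Etv5, an ETS factor named after its value was seen, was the rise, at 0.96. It was not called with total-read scaling (limma adjusted p = 0.307) or quantile normalization (0.0619), nor without any 1 library other than BMSC-CT replicate 3. Of 15 upstream kinases and factors 4 fell and 1 rose, with a median of -0.73 (8 and 3 without that library). The falls were Elk3, an SRF partner, at -1.49, the Egr1 co-repressors Nab1 and Nab2 at -1.96 and -1.58, and Creb1 at -1.59; Mapk3, which encodes ERK1, was at 1.21 and was named after its value was seen.

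Among 10 other bZIP factors 2 rose and none fell by limma, at a median of -0.15, and edgeR and DESeq2 gave the same counts. Of all genes 7.7% rose and 10.9% fell by limma, 8.05 and 9.51% by edgeR, and 16.4% each way by DESeq2. Batf, which pairs with Jun proteins in immune cells, went from 61.8 ± 21.6 to 435 ± 258 normalized counts, a log2 fold change of 2.68 (SE 0.50, limma adjusted p = 0.0163). Batf3, its relative in dendritic cells, was at 3.67 (limma adjusted p = 0.0238). No bZIP gene of the list had an unadjusted limma p under 0.05 in the lower direction, against 21.6% of all genes.

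Of 18 genes known as AP-1 targets in other systems, 11 fell and 1 rose, and the list median was -2.30 on the log2 scale (13 and 2 without BMSC-CT replicate 3). Il11, a cytokine of the IL-6 family, went from 12644 ± 2133 to 12.9 ± 7.27 normalized counts, a log2 fold change of -9.95 (SE 0.41, limma adjusted p = 0.000165). Il6 was at -7.75, the metalloproteinase gene Mmp3 at -3.78 and Ccnd1, the cyclin of early cell cycle entry, at -2.66. Spp1, the osteopontin gene, rose, at 1.10 (limma adjusted p = 0.0119). This call was lost with total-read scaling (0.68, adjusted p = 0.0873) and quantile normalization (0.66, adjusted p = 0.0975). Whether AP-1 acts on these genes in these cells was not measured. Over all 16818 genes the median was -0.147, with 10.9% falling and 7.7% rising. Without BMSC-CT replicate 3, 23.5% of all genes fell and 19.5% rose.

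Several of these list calls were lost when 1 library was left out. Over all genes, the number of rises dropped from 1295 to 403 without BMSC-CT replicate 2. Without BMSC-C replicate 1, 2 or 3 it dropped to 283, 249 and 462. Without BMSC-CT replicate 2 or any 1 BMSC-C library, Sgk1, Atf3, Mapk3, Etv5 and Spp1 no longer passed, with limma adjusted p of up to 0.118, 0.123, 0.124, 0.129 and 0.0904. Batf and Batf3 were lost without BMSC-CT replicate 2 or BMSC-C replicate 1 or 2 (limma adjusted p up to 0.0854 and 0.101). With each library left out, the falls numbered 5 to 13 of the other immediate early genes and 8 to 10 of the feedback genes. They numbered 1 to 8 of the upstream genes, 9 to 13 of the targets and 487 to 3935 of all genes.

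**Figure D4:**
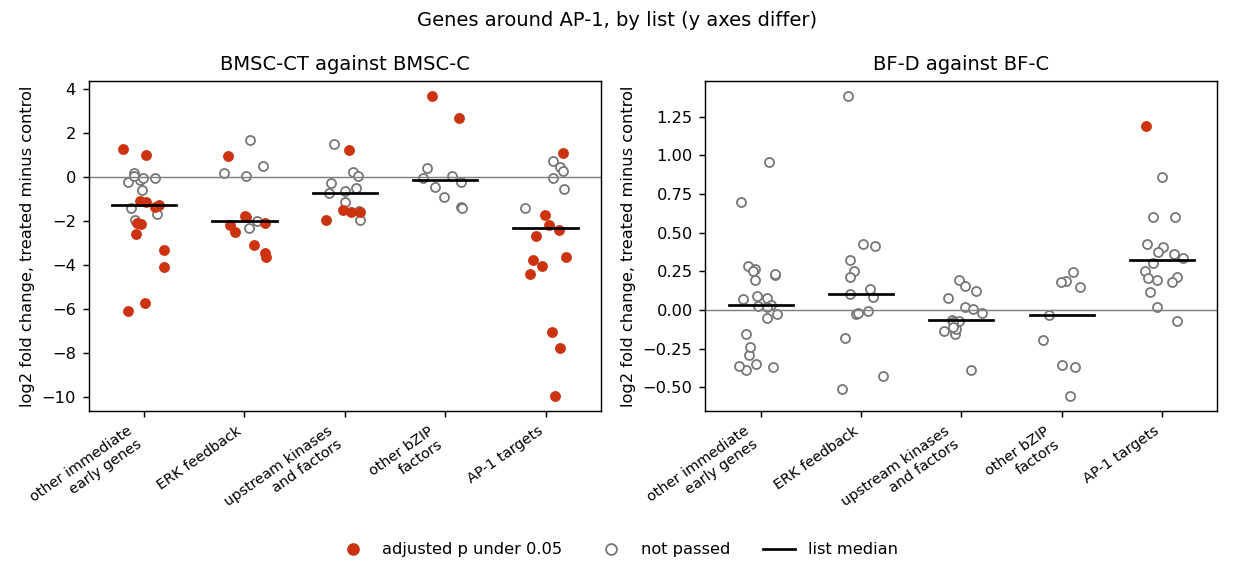
Log2 fold change, treated minus control, of each tested gene by list (x axis) in both comparisons, with separate y axes. Filled points have a limma adjusted p under 0.05 and bars are list medians. On the left the AP-1 target median is -2.30 with 11 falls, and on the right it is 0.32 with 1 rise, Spp1.

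Docetaxel was then compared in the BF cells, over 17076 genes. By limma none of the 9 genes rose or fell; 0.00586% of all genes rose and the same share fell, 1 gene each. At an unadjusted p under 0.05, 1 of the 9 was higher, Ier3, and none lower, against 3.26 and 2.94% of all genes, and edgeR, DESeq2 and limma-voom called 0 of the 9. These tools called 0.00586, 0.263 and 0% of all genes higher and 0.00586, 0.234 and 0% lower. The median log2 fold change of the 9 was 0.132, beside -0.0044 over all genes. Groups did not overlap for Ier3 and Jun, higher in every BF-D library, and for Fosl2, lower in every BF-D library, against 7.78 and 9.04% of all genes.

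Ier3 had 6179.6, 5719 and 6024 normalized counts in BF-C and 8083, 12757 and 8337 in BF-D. Every BF-D library was above every BF-C library, and replicate 2 was far above its mates. Its means were 5974 ± 235 and 9725 ± 2629 (SD, n = 3 each), a log2 fold change of 0.67 (95% interval 0.28 to 1.06; limma adjusted p = 0.647). Without BF-D replicate 2 it rose, by a log2 fold change of 0.46 (SE 0.042, limma adjusted p = 0.00015), while 0.729% of all genes rose and 0.811% fell. Over the 17 alternatives its adjusted p ran from 0.00015 to 0.918, and this was the 1 that called it. The authors' deposited table gave an adjusted p of 0.0655.

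Fosl2 had 1230.15, 1227 and 1106 normalized counts in BF-C and 976, 403 and 1000.2 in BF-D. All BF-D libraries were lower, and replicate 2 lay far below the others. The log2 fold change was -0.69 (95% interval -1.43 to 0.05; limma adjusted p = 0.706), and -0.26 without that library (adjusted p = 0.0699). Jun had 899, 833 and 844 in BF-C and 943, 1017 and 946 in BF-D, a narrow separation, with a log2 fold change of 0.17 (95% interval -0.03 to 0.38; limma adjusted p = 0.706).

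The 3 genes that fell with CTGF and TGF-β1 showed close groups here. Egr1 had 443, 405 and 395 normalized counts in BF-C and 468, 370.4 and 448 in BF-D, and Fosl1 441, 447 and 482 against 530.0, 463 and 510.0. Their groups overlapped, with log2 fold changes of 0.04 (95% interval -0.25 to 0.34) and 0.13 (95% interval -0.11 to 0.38). Fos was at 103, 94.0 and 102 in BF-C and at 96.9, 83.4 and 81.7 in BF-D, a log2 fold change of -0.19 (95% interval -0.57 to 0.18). Fosb, on 7 to 29 reads per library, had the widest interval, from -0.72 to 1.63 around 0.45. Junb and Jund overlapped too, at 0.13 and 0.17, with intervals from -0.14 to 0.39 and -0.11 to 0.44. A missed threshold does not show that the groups were alike. The difference between the docetaxel and the growth factor comparison was not tested.

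Around AP-1, 1 gene passed in the docetaxel comparison. Among the 18 AP-1 targets, 17 had a log2 fold change above 0, with a list median of 0.32, beside -0.0044 over all genes. In that direction 11 had an unadjusted limma p under 0.05, against 3.26% of all genes. Spp1 alone rose by limma, from 1175 ± 68.5 to 2687 ± 320 normalized counts (SD, n = 3 each), a log2 fold change of 1.19 (SE 0.11, limma adjusted p = 0.0427). It was the only rise among all genes. The call was lost in 8 of 17 alternatives, at a mean of at least 10 (limma adjusted p = 0.0671), with limma-voom (0.0582), with the replicate block (0.125) and without any 1 library other than BF-D replicate 2 (0.101 to 0.434), while its log2 fold change stayed between 1.09 and 1.26. Il11, Mmp9 and Mmp13 came next in the list, at 0.86, 0.60 and 0.60 with limma adjusted p of 0.145, 0.231 and 0.231, and are named after their values were seen. DESeq2 called 4 of the 18 higher and edgeR 1, against 0.263 and 0.00586% of all genes. Without BF-D replicate 2, 13 of the 18 rose and none fell by limma, among them Il11 at 0.78, Mmp9 at 0.61 and Ptgs2, the inducible cyclooxygenase gene, at 0.51. Of all genes 0.729% rose and 0.811% fell in that fit. When each library was left out in turn, the rises numbered 0 to 13 of the 18 targets and 0 to 125 of all genes, so the 13 is the highest of these counts.

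None of the other immediate early, ERK feedback, upstream or bZIP genes passed in the docetaxel comparison by limma, edgeR or DESeq2, of 23, 15, 15 and 9 tested. At an unadjusted p under 0.05, 4, 4, 0 and 0 of them were higher and 2, 0, 0 and 0 lower, against 3.26 and 2.94% of all genes. Phlda1 had the smallest adjusted p of the feedback genes, at a log2 fold change of 0.42; Spry4, at 0.26, tied on adjusted p with others, of which Dusp2 (1.38) and Dusp5 (0.43) had smaller unadjusted p and are named after their values were seen. Klf4 and Trib1 had the smallest unadjusted p of the immediate early genes, at -0.29 and -0.37. Without BF-D replicate 2, Phlda1 and Spry4 rose (0.36 and 0.32; limma adjusted p = 0.00839 and 0.0121) and Klf4 fell by 0.23 (limma adjusted p = 0.0411). Creb1 was at -0.39, Mapk3 at 0.20, Atf2 at -0.37 and Atf4 at 0.25. Macrophage markers were scarce in both groups and none of 13 passed by limma, with 6 higher at an unadjusted p under 0.05 and 2 called higher by DESeq2. Without BF-D replicate 2, 3 of the 13 rose, Lyz2 (1.58), Cd68 (0.78) and Laptm5 (1.80), with limma adjusted p of 0.00403, 0.0229 and 0.0454. Their part in the target rises of the same fit was not tested. Over all 6 libraries Lyz2 was at 45.1 ± 4.47 and 136 ± 31.3 normalized counts and Cd68 at 103 ± 10.3 and 177 ± 6.18. Of the mesenchymal markers none of 10 passed by limma, with Col3a1 and Cxcl12 at -0.35 and -0.37, and DESeq2 called 2 lower. Without BF-D replicate 2, 4 of the 10 fell, Col1a1, Col3a1, Cxcl12 and Pdgfra, by 0.22, 0.34, 0.36 and 0.18 on the log2 scale (limma adjusted p = 0.00713, 0.000307, 0.00064 and 0.0353). When each library was left out in turn, the macrophage rises numbered 0 to 3 and the mesenchymal falls 0 to 4.

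The genes of the agents themselves were read beside the set. Ctgf was at 4897 ± 734 and 3838 ± 265 normalized counts in BMSC-C and BMSC-CT, a log2 fold change of -0.34 (limma adjusted p = 0.234), and Tgfb1 at 6181 ± 1499 and 11094 ± 3657, at 0.82 (limma adjusted p = 0.104). Neither passed in the docetaxel comparison, at 0.08 and 0.19 (limma adjusted p = 0.816 and 0.706). In the BF cells Ctgf stood at 644 RPM in BF-C, above BMSC-C at 333.

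The profiles most like those of 4 genes over the 12 libraries were searched among 8720 genes of at least 10 RPM, by the root mean square difference of centred log2(RPM + 1). This is a description over libraries that share groups and depth. Nearest to Fosl1 was Ccnd1, at 0.137, then Cited2 at 0.162 and Enc1 at 0.184, where the median gene was at 1.18. Nearest to Egr1 were Mthfd1l (0.210), Glrx (0.245) and Prdm1 (0.272), with a median gene at 1.13. For Fos the nearest were Ext1, Wdr75 and Ipmk, at 0.163 to 0.172, and for Jun they were Rps6ka2, Stx3 and AABR07044711.1, at 0.126 to 0.179. Fos itself reached at most 6.63 RPM, below the floor of 10 RPM, so the added 1 narrows its differences on this scale. Ccnd1 is also in the list of AP-1 targets.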

How the data were processed

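RNA-seq of 12 rat libraries was used. The aligner named per the submitters' processing notes is Bowtie 0.12.2 and the build mm8, of the mouse, whereas gene IDs are of the rat; the rat build is not given in the sources used here and no coordinates of the files are printed. How reads were counted, and whether by strand, is not stated either. The signal values deposited by the authors are normalized counts, 1 per gene and library, and 100% of them were whole reads times a factor per library (tolerance 0.01), so reads could be recovered. RPM is computed from these reads. The log2 fold changes, p-values and enrichment terms deposited by the authors are printed only where named. A total of 0 columns lacked a sample.

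Because the unit is not raw counts, the main test was limma 3.58.1 (R 4.3.3, empirical Bayes with a trend) on log2(normalized count + 1), for genes with a mean of at least 1, each comparison in its own table, with Benjamini-Hochberg adjustment over all its genes. edgeR 4.0.16, DESeq2 1.42.0 and limma-voom were run on recovered reads. An exact permutation test of 3 against 3 libraries cannot go below a p of 0.1. The limma procedure was also run on simulated counts with known changes. These held no length trend and no library that stood apart, so they cannot show how the test behaves under those features. Other alternatives were a pseudocount of 0.5, no filter or a mean of at least 10, other scalings, a replicate block, removal of the length trend and each library left out. Groups came from the sample titles. No label pairs the libraries by replicate number. Deviations of same-numbered libraries correlated at 0.199, -0.0209 and 0.183 in the BMSC table and at 0.0140, 0.0196 and -0.00285 in the BF table. Those of other-numbered libraries ran from -0.225 to 0.0891 and from -0.0348 to 0.0277. These values cannot settle whether the numbers mark pairs, since the libraries also differ in quality.

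The members and lists were chosen with earlier results of these data known. Named were all members, Ctgf and Tgfb1, up to 4 genes per list with the smallest adjusted p among called genes (up to 2 where none passed), and the 3 nearest profiles of Egr1, Fos, Fosl1 and Jun. Promoter stretches are the bases before the start in RefSeq, build GRCr8.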

Additional observations from a re-analysis of the deposited data

How the results depend on the processing

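Fosl1 and Egr1 kept their calls under all 17 alternatives in the BMSC comparison, and leaving out each library in turn left 2 to 3 of the 9 genes falling. The 0 genes called higher there became 1 with DESeq2 and 1 with the replicate block, Jund both times. Over all genes, 1295 were called higher in BMSC-CT, against 787 with total-read scaling, 2695 with DESeq2, 2104 with the length trend removed and 249 to 3269 when each library was left out; the 1839 called lower ranged from 487 to 3935 in the same way, highest without BMSC-CT replicate 3. In BF-D, 1 gene was higher and 1 lower over all genes. The 1 higher gene, Spp1, was lost in 8 of 17 alternatives. The higher count was 0 with a mean of at least 10, limma-voom or the replicate block, 2 with quantile normalization, 7 with the length trend removed, 37 with DESeq2 and 0 to 125 when each library was left out. The lower count was 0, 0 and 0 under the first 3 of these, 4 with the length trend removed, 33 with DESeq2 and 0 to 139 when each library was left out, highest without BF-D replicate 2. Of the 9 genes, 0 to 1 were called higher when each BF library was left out, the 1 being Ier3. Genes near 0 changed sign without passing the test. In BMSC-CT the log2 fold change of Jun was 0.21 with the length trend removed and -0.32 to 0.10 when each library was left out, and that of Junb -0.19 with quantile normalization, -0.22 with total-read scaling and -0.0604 to 0.409 when each library was left out. Jun was also at -0.60 with total-read scaling and -0.43 with quantile normalization. Ier3 there was at -0.47 and -0.63 under these scalings and ran from -0.23 to 0.15, and in BF-D Egr1 ran from -0.0223 to 0.146 and Fosb from -0.0918 to 0.918, again with each library left out. The cause of these moves was not tested. The replicate block, on numbers that the labels do not tie to shared cultures, changed no other call among the 9 genes. Fosb had 1 to 29 reads per library and Fos 6 to 18 in BMSC-CT.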
